A study of Mus musculus with 6 samples.

Results

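Rods are the photoreceptors of dim light, and their machinery is carried by a small set of genes. To follow these genes in retinal cells sorted to enrich retinal ganglion cells (RGCs), 9 rod genes were read from the raw count table by gene symbol. They were *Gnat1*, *Pde6a*, *Pde6b*, *Pde6g*, *Cnga1*, *Cngb1*, *Sag*, *Nrl* and *Nr2e3*, which are 9 of 55573 gene identifiers in the table. The rule takes genes by name, with no threshold on a measured value, and each of the 9 genes passed the filter on low counts. In the control libraries, the 9 genes lay between the 38.3rd and the 84.2nd percentile of the mean level of all tested genes.

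All mice were C57BL/6J and carried no germline allele named in the labels. An adeno-associated virus (AAV2) carrying either *GFP*, as control, or *Ezh2*, which encodes a histone methyltransferase, was injected into the vitreous. The optic nerve was crushed (ONC) 2 weeks after the injection in both groups, so there was no uninjured control. Cells bearing CD90.2, which *Thy1* encodes, were sorted 3 days after ONC. There were 3 GFP libraries and 3 Ezh2 libraries. The labels do not say whether the libraries came from separate animals, so p values measure only the spread between these libraries, which may be technical. AAV2 is known to enter other retinal cells besides RGCs, and the promoter driving each transgene was not given in the sources used here.

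In a rod, light-activated visual pigment turns on the G protein transducin, and transducin releases the phosphodiesterase PDE6 from its inhibitory subunit. PDE6 then breaks down cyclic GMP, the cyclic nucleotide-gated channels of the outer segment close, and arrestin stops the signal. The transcription factors Nrl and Nr2e3 set rod identity during development, activating rod genes and, in the case of Nr2e3, repressing cone genes.

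The libraries held 30569933 to 35971192 counts, and the smallest count of any rod gene was 163. A count of 0 would allow up to 3 counts, or 0.0834 to 0.0981 CPM (counts scaled to the library total), which covers counting error only. *Ezh2* mRNA levels were 28.8, 34.6 and 33.0 CPM in the GFP libraries and 78.0, 65.3 and 104.8 CPM in Ezh2-1, Ezh2-2 and Ezh2-3. Ezh2-3 stood apart from the other libraries, at 76.5 on a first principal component that held 46.6% of the variance and placed the other 5 libraries between -35.0 and 10.7. The study left out 1 Ezh2 library, which is taken from its heatmap columns to be Ezh2-3. Comparisons therefore used the other 5 libraries, and values with Ezh2-3 are given beside those of each rod gene. The mitochondrial share of counts was 1.65% to 2.23%.

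The label of the sorted cells was compared with defining markers. *Pou4f2*, a transcription factor that defines most RGCs, had 0 to 3 counts per library. *Pou4f1* and *Pou4f3*, its close relatives, did not exceed 0.600 and 0.404 CPM. *Thy1* itself was at 87.2 to 113.8 CPM and *Rbpms*, another RGC marker, at 16.4 to 20.8 CPM. The summed level of 8 Müller glia markers was 19050 ± 383 CPM (SD, n = 3) in the GFP libraries, led by *Glul* (glutamine synthetase) at 9540 to 9900 CPM. The libraries thus held RNA of several retinal cell types. Rod genes in bulk RNA can move through fewer or more rods or through less or more RNA per rod, and these cannot be told apart.

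Sequence upstream of the start site was looked at for 6 of the 9 rod genes, in the RefSeq promoter table of GRCm38.p6. The 250 bases before each start were searched on both strands for 3 short motifs, which do not overlap one another in these windows. These were TAATCC, the core recognised by the photoreceptor factor Crx, TGCTGA, a half-site of Nrl, and AAGTCA, a site of Nr2e3. The windows of the channel subunit gene *Cngb1* and of the arrestin gene *Sag* are shown because they held more than 1 motif match each. Capitals mark TAATCC (read as GGATTA on the opposite strand) and TGCTGA.
Cngb1, chr8:95306586-95306835, minus strand: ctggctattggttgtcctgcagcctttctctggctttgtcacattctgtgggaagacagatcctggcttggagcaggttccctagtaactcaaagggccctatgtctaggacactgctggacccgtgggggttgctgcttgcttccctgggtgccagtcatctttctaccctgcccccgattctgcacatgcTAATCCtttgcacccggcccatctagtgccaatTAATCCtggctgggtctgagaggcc
Sag, chr1:87803430-87803679, plus strand: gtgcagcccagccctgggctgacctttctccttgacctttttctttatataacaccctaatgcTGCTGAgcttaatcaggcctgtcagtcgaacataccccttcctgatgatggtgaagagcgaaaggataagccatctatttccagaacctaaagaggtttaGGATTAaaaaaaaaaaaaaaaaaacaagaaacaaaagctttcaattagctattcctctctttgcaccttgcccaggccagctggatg

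*Cngb1* held TAATCC at 58 and at 25 bases upstream of the start, both on the strand of the gene. *Sag* held TAATCC on the opposite strand, starting 87 bases upstream, and TGCTGA 187 bases upstream. *Cnga1* held TAATCC at 228 bases upstream, and *Pde6b* held TGCTGA at 8 bases upstream. The windows of *Nrl* and *Nr2e3* held none of the 3 motifs, and AAGTCA was in 0 of the 6 windows. Those of *Nrl*, *Nr2e3* and *Cnga1* lay inside the annotated span of their gene, so starts farther upstream were not searched. For *Pde6b*, 0 annotated transcripts matched the bases after the start used. Among all 32851 promoters of the same length, 6.25% held TAATCC, 16.1% held TGCTGA and 13.1% held AAGTCA. These matches describe letters in a window, and binding was not measured.

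To compare mRNA levels between rod genes, CPM were divided by the summed exon length of each gene. In the GFP libraries the transducin gene *Gnat1* was highest, at 22.8 to 27.0 CPM per kb. *Sag* followed at 5.76 to 6.38 and *Pde6a* at 5.44 to 6.35 CPM per kb, and these ranges overlapped. *Pde6g* at 3.84 to 4.90 and *Pde6b* at 3.42 to 4.67 CPM per kb also overlapped each other, below *Pde6a*. *Nrl* reached 2.04 to 2.93 CPM per kb. The ranges of *Nr2e3* (1.58 to 1.98) and *Cngb1* (1.65 to 1.90) overlapped, and *Cnga1* was lowest at 0.951 to 1.12 CPM per kb. These levels depend on the annotated exon length, since the expressed isoforms are not known here.

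The summed level of the 9 rod genes was 233 ± 15.1 CPM (SD, n = 3) in the GFP libraries. It was 324 ± 8.56 CPM (SD, n = 2) in Ezh2-1 and Ezh2-2, which is 1.39 times the GFP mean. In Ezh2-3 it was 194 CPM, or 0.832 times the GFP mean and below each GFP library. The 9 genes together made up 0.0194% to 0.0330% of all counts in a library. For 5 of the 9 genes (*Gnat1*, *Pde6g*, *Cnga1*, *Cngb1* and *Sag*), Ezh2-3 lay below each GFP library in CPM while Ezh2-1 and Ezh2-2 lay above each. The share of all tested genes with this order was not counted. CPM used library totals alone. The TMM scaling factors of the 6-library fit were 0.952 for Ezh2-3 and 1.013 to 1.015 for GFP libraries. Dividing by them would raise Ezh2-3 relative to GFP, so the order of close values depends on the scaling.

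**Figure D1:**
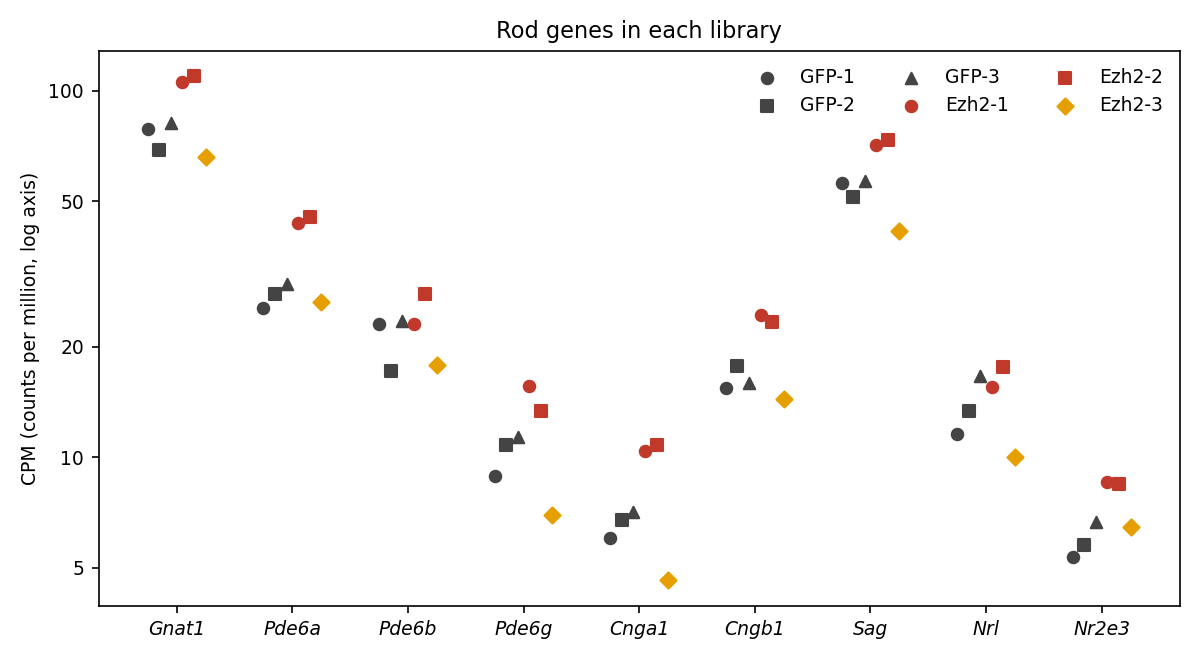
Level of the 9 rod genes in each library, in CPM on a log axis. Points are libraries, with GFP in grey, Ezh2-1 and Ezh2-2 in red and Ezh2-3 in orange. Ezh2-1 and Ezh2-2 lie above the GFP libraries for 7 of the 9 genes and for 21.5% of all tested genes. Ezh2-3 exceeds the highest GFP library for 0 of the 9, and the share of all tested genes that do so was not counted.

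For each gene, Ezh2-1 and Ezh2-2 were compared with the 3 GFP libraries by the edgeR quasi-likelihood test over all 20241 tested genes with Benjamini-Hochberg adjustment. Calling a gene required a fold change above 1.5 together with an adjusted p below 0.05. Of the 9 rod genes, 2 were called higher (*Pde6a* and *Cnga1*) and 0 lower, while 2.52% of all tested genes were called higher. Without the fold threshold, 7 of the 9 passed as higher, beside 10.1% of all tested genes. Both Ezh2 libraries lay above each GFP library for 7 of the 9 rod genes and for 21.5% of all tested genes. The median log2 fold change was 0.50 over the rod genes and -0.01 over all tested genes.

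With Ezh2-3 in the Ezh2 group, 0 of the 9 rod genes were called in either direction by edgeR, and 1.62% of all 19732 tested genes were called higher. At an unadjusted p under 0.05, 2 of the 9 were higher in that comparison, beside 13% of all tested genes. The median log2 fold change over the rod genes was then 0.33, beside 0.01 over all tested genes, and it was 0.20 when Ezh2-2 was left out of the 6 libraries. A summed level of the rod genes above GFP was thus measured in Ezh2-1 and Ezh2-2 and not in Ezh2-3. What set Ezh2-3 apart was not tested.

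**Figure D2:**
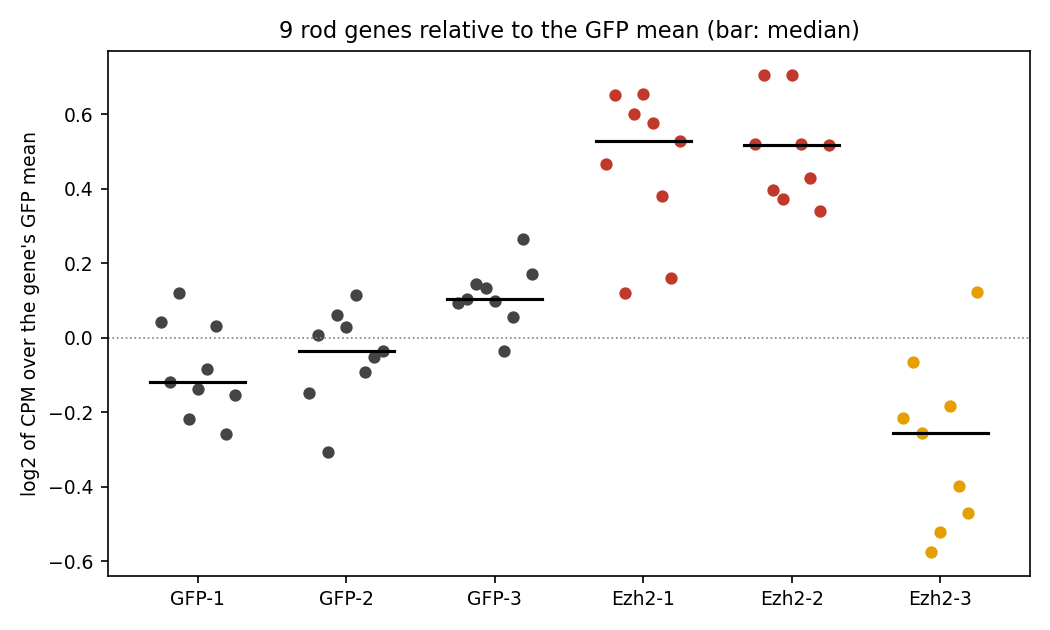
Log2 ratio of each rod gene's CPM to its GFP mean, by library. Each point is 1 of the 9 genes and the bar is their median, which is near 0.5 in Ezh2-1 and Ezh2-2 and below 0 in Ezh2-3.

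Transducin is the first relay after the visual pigment, and *Gnat1* encodes its rod alpha subunit (chromosome 9, 107674474 to 107679712, minus strand, GRCm38). *Gnat1* was at 78.9, 69.1 and 81.7 CPM in GFP-1, GFP-2 and GFP-3, at 105.7 and 109.7 CPM in Ezh2-1 and Ezh2-2, and at 66.0 CPM in Ezh2-3. In CPM, Ezh2-1 and Ezh2-2 were thus above the GFP range and Ezh2-3 below it. The order of Ezh2-3 and GFP-2 depends on the scaling. The fold change was 1.42, with a log2 fold change of 0.50 ± 0.06 (SE) and an edgeR adjusted p of 1.11e-06 (Benjamini-Hochberg), which passed the p threshold and not the fold threshold. Including Ezh2-3, the log2 fold change was 0.33 ± 0.17 (SE) and the edgeR adjusted p was 0.294.

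The phosphodiesterase is built from catalytic subunits encoded by *Pde6a* and *Pde6b* and from an inhibitory subunit encoded by *Pde6g*. *Pde6a* (chromosome 18, 61220315 to 61289924, plus strand) was at 25.5, 27.8 and 29.8 CPM in the GFP libraries, at 43.5 and 45.2 CPM in Ezh2-1 and Ezh2-2 and at 26.5 CPM in Ezh2-3. Ezh2-3 thus lay inside the GFP range, and the other Ezh2 libraries above it. Compared to the control group, *Pde6a* rose 1.61-fold in Ezh2-1 and Ezh2-2, with a log2 fold change of 0.69 ± 0.08 (SE) and an edgeR adjusted p of 2.18e-07. With Ezh2-3 the log2 fold change was 0.50 ± 0.18 (SE) and the adjusted p, by edgeR, was 0.139.

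*Pde6b* (chromosome 5, 108388391 to 108432397, plus strand), the partner of *Pde6a* in the catalytic dimer, did not pass the test. Its levels were 23.1, 17.2 and 23.5 CPM in the GFP libraries, 23.1 and 28.0 CPM in Ezh2-1 and Ezh2-2, and 17.8 CPM in Ezh2-3, so the groups overlapped. By edgeR, the log2 fold change was 0.28 ± 0.13 (SE) and the adjusted p was 0.170. With Ezh2-3 these were 0.15 ± 0.17 (SE) and an edgeR adjusted p of 0.625.

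*Pde6g* (chromosome 11, 120447605 to 120453500, minus strand) was at 8.90, 10.8 and 11.4 CPM in the GFP libraries, at 15.7 and 13.4 CPM in Ezh2-1 and Ezh2-2, and at 6.95 CPM in Ezh2-3. Ezh2-3 was the lowest of the 6 libraries and Ezh2-1 and Ezh2-2 were the highest. *Pde6g* passed the p threshold at 1.41-fold, with a log2 fold change of 0.50 ± 0.13 (SE) and an edgeR adjusted p of 0.00496. Without Ezh2-1 the edgeR adjusted p was 0.103. Including Ezh2-3, the log2 fold change was 0.24 ± 0.26 (SE) and the edgeR adjusted p was 0.594.

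The ratio of *Pde6a* to *Pde6b* counts was examined because both subunits enter the same enzyme. It was 1.10, 1.62 and 1.27 in the GFP libraries, 1.88 and 1.62 in Ezh2-1 and Ezh2-2, and 1.49 in Ezh2-3. In the 5 libraries the exact two-sided permutation p was 0.3, and 0.1 was the smallest p that this design allows. For the ratio of *Pde6g* to *Pde6b*, which was 0.385 to 0.629 in GFP libraries and 0.390 to 0.679 in Ezh2 libraries, the exact permutation p was 0.5 in the 5 libraries. A change in the balance between the subunits was not detectable with these numbers of libraries.

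The cyclic GMP-gated channel of the rod outer segment is formed by *Cnga1* and *Cngb1*. *Cnga1* (chromosome 5, 72603696 to 72644275, minus strand), the pore-forming alpha subunit, was at 6.02, 6.76 and 7.09 CPM in the GFP libraries, at 10.4 and 10.8 CPM in Ezh2-1 and Ezh2-2 and at 4.61 CPM in Ezh2-3. The libraries fell into 3 levels that did not overlap, with Ezh2-3 lowest. *Cnga1* rose 1.61-fold in Ezh2-1 and Ezh2-2, with a log2 fold change of 0.69 ± 0.15 (SE) and an edgeR adjusted p of 0.000767. With Ezh2-3 the log2 fold change was 0.41 ± 0.28 (SE) and the edgeR adjusted p was 0.402.

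*Cngb1* (chromosome 8, 95239045 to 95306585, minus strand), whose upstream window with 2 TAATCC matches is shown above, encodes the beta subunit. It was at 15.4, 17.7 and 16.0 CPM in the GFP libraries, at 24.4 and 23.5 CPM in Ezh2-1 and Ezh2-2 and at 14.4 CPM in Ezh2-3. It passed the p threshold at 1.47-fold, just under the fold threshold, with a log2 fold change of 0.56 ± 0.10 (SE) and an edgeR adjusted p of 8.17e-05. With Ezh2-3 included, the log2 fold change was 0.37 ± 0.18 (SE) and the edgeR adjusted p was 0.227. The ratio of *Cnga1* to *Cngb1* counts was 0.381 to 0.444 in GFP libraries, 0.427 and 0.460 in Ezh2-1 and Ezh2-2 and 0.320 in Ezh2-3 (exact permutation p = 0.3 in 5 libraries and 0.9 in 6).

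*Sag* (chromosome 1, 87803680 to 87845158, plus strand) encodes rod arrestin, which binds activated visual pigment and ends its signal. It was at 55.9, 51.3 and 56.8 CPM in the GFP libraries, at 71.2 and 73.6 CPM in Ezh2-1 and Ezh2-2 and at 41.5 CPM in Ezh2-3. Again Ezh2-3 was the lowest library and Ezh2-1 and Ezh2-2 were the highest. The fold change was 1.33, with a log2 fold change of 0.42 ± 0.07 (SE) and an edgeR adjusted p of 2.25e-05, which passed the p threshold only. With Ezh2-3 the log2 fold change was 0.21 ± 0.19 (SE) and the edgeR adjusted p was 0.518.

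The 2 identity factors come last. *Nrl* (chromosome 14, 55518978 to 55524981, minus strand), the leucine zipper factor needed to make rods, was at 11.6, 13.4 and 16.7 CPM in the GFP libraries, at 15.5 and 17.6 CPM in Ezh2-1 and Ezh2-2 and at 10.04 CPM in Ezh2-3. The groups overlapped, the log2 fold change was 0.27 ± 0.13 (SE), and the edgeR adjusted p was 0.165. With Ezh2-3 the log2 fold change was 0.08 ± 0.21 (SE) and the edgeR adjusted p was 0.829.

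*Nr2e3* (chromosome 9, 59942771 to 59960659, minus strand) encodes the nuclear receptor that acts with Nrl. It was at 5.33, 5.78 and 6.67 CPM in the GFP libraries, at 8.54 and 8.48 CPM in Ezh2-1 and Ezh2-2 and at 6.45 CPM in Ezh2-3. It passed the p threshold at 1.45-fold, with a log2 fold change of 0.53 ± 0.16 (SE) and an edgeR adjusted p of 0.0173. That p did not hold when 1 library was left out of the 5, with edgeR adjusted p values of 0.0576 without GFP-1, 0.0529 without GFP-2, 0.0776 without Ezh2-1 and 0.100 without Ezh2-2. It held without GFP-3, at an edgeR adjusted p of 0.0155. With Ezh2-3 the log2 fold change was 0.44 ± 0.17 (SE) and the edgeR adjusted p was 0.157. *Nr2e3* was the 1 rod gene whose Ezh2-3 level exceeded the GFP mean, by 1.09 times. A gene on the same strand, *Gm15507*, shares exon sequence with *Nr2e3*, so its reads are uncertain to that extent.

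**Figure D3:**
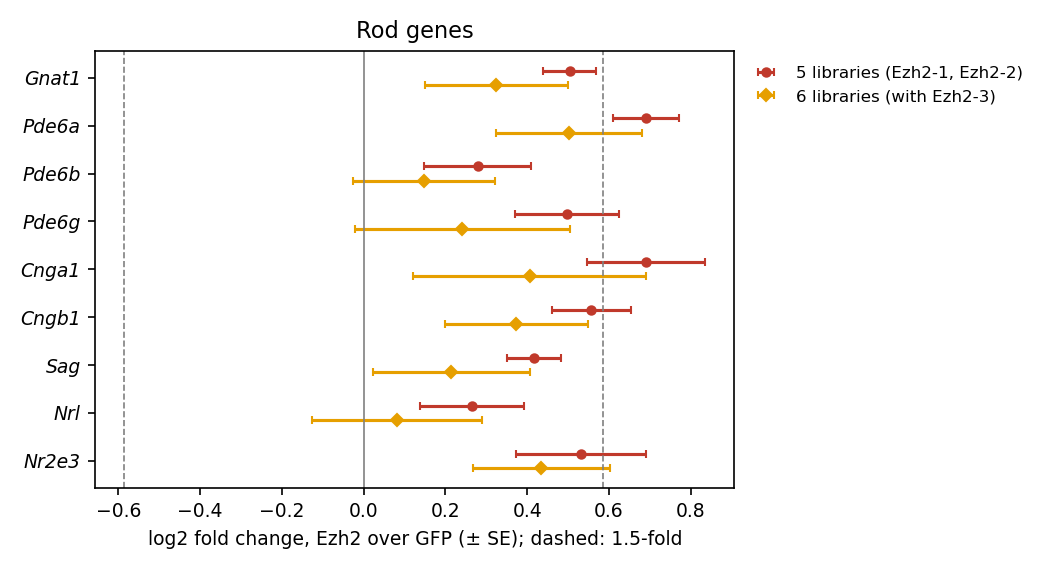
Log2 fold change of the 9 rod genes, Ezh2 over GFP, with bars of 1 SE from edgeR. Red points use 5 libraries, orange points use all 6, and dashed lines mark a 1.5-fold change. Each orange point lies left of its red point, and only *Pde6a* and *Cnga1* have a red point past the dashed line.

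To see how far the rod genes moved together, each gene's log2 CPM was correlated over the 6 libraries with the mean of the other 8. Pearson's r was highest for *Cnga1* (0.985) and lowest for *Pde6b* (0.725), with *Nr2e3* at 0.820 and *Nrl* at 0.842. The libraries share the group difference, so these values are a description only. Of 13761 other genes with at least 100 counts on average, the 10 most like the rod mean over the 6 libraries were *Fuom*, *Pcdhb5*, *Axl*, *S1pr2*, *Gna14*, *Fzd7*, *Engase*, *Epn1*, *Dtnbp1* and *Gcnt2*, with r from 0.977 to 0.995. None of these is on the photoreceptor lists. The photoreceptor genes *Gucy2e*, *Rp1* and *Cdhr1* ranked 12, 14 and 22. *Rcvrn*, *Impg2*, *Guca1b* and *Grk1* ranked 29, 40, 49 and 67, with r from 0.949 to 0.963. Ranks on the photoreceptor lists spread widely below these. Among the lower ones were *Crx* at 1871 (r = 0.642), *Gucy2f* at 5176 (r = 0.241) and *Rorb* at 6723 (r = 0.073).

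Other photoreceptor genes were taken from lists of 39 genes, of which 38 could be tested and *Guca1a* was too low. In Ezh2-1 and Ezh2-2 against GFP, 13 of the 38 were called higher and 0 lower by edgeR. Over all tested genes, 2.52% were called higher and 1.28% lower. The median log2 fold change of the 38 was 0.48, beside 0.50 for the 9 rod genes. With Ezh2-3, 2 of the 38 were called higher (*Rp1l1* and *Prom1*) and 0 lower, beside 1.62% and 0.902% of all tested genes. The median of the 38 was then 0.22.

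A first list took genes of the outer segment, the stack of membranes that holds the pigment, and of the visual cycle, which renews it. This list held 11 of the 13 calls among 18 tested, while 2.52% of all tested genes were called higher. *Rbp3*, a retinoid carrier between photoreceptors and pigment epithelium, had the highest log2 fold change of the list, 1.06 ± 0.07 (SE), with an edgeR adjusted p of 9.10e-10. It was at 69.6, 63.2 and 79.4 CPM in the GFP libraries, at 147.2 and 145.7 CPM in Ezh2-1 and Ezh2-2 and at 79.2 CPM in Ezh2-3. With Ezh2-3 the log2 fold change of *Rbp3* was 0.84 ± 0.24 (SE), which missed the threshold at an edgeR adjusted p of 0.103. *Prom1*, needed for outer segment discs, was at 18.4, 18.2 and 18.4 CPM in GFP libraries, at 35.8 and 37.6 CPM in Ezh2-1 and Ezh2-2, and at 23.6 CPM in Ezh2-3. *Prom1* was thus above the GFP range in each Ezh2 library, although an antisense gene, *Gm16401*, overlaps its exons. Its edgeR adjusted p was 3.14e-10 in 5 libraries and 0.0149 in 6.

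*Prph2*, a structural protein of the disc rims, was at 51.7 ± 5.05 CPM (SD, n = 3) in GFP libraries, 88.4 ± 2.46 CPM (SD, n = 2) in Ezh2-1 and Ezh2-2 and 50.4 CPM in Ezh2-3. Other called genes of this list included *Rp1*, *Rp1l1*, *Cdhr1*, *Abca4*, *Impg1*, *Tulp1* and *Aipl1*. Their log2 fold changes in 5 libraries ranged from 0.61 for *Rp1* to 0.91 for *Impg1*. *Rp1l1* was at 14.5 ± 1.26 CPM (SD, n = 3) in GFP libraries, 26.8 ± 0.276 CPM (SD, n = 2) in Ezh2-1 and Ezh2-2, and 17.9 CPM in Ezh2-3. The lowest of the list was *Unc119*, a lipid-binding trafficking protein, at 0.16 ± 0.08 (SE). The median of the list was 0.64 in 5 libraries and 0.42 with Ezh2-3.

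While 2.52% of all tested genes were called higher, 2 of 12 tested were so among the other transduction and calcium feedback genes. These were *Slc24a1*, the rod sodium, calcium and potassium exchanger, with a log2 fold change of 0.85 ± 0.11 (SE), and *Guca1b*, a calcium-sensing activator of guanylyl cyclase, at 0.64 ± 0.16 (SE). *Slc24a1* was at 15.9, 11.7 and 14.9 CPM in GFP libraries, at 23.7 and 26.9 CPM in Ezh2-1 and Ezh2-2, and at 13.1 CPM in Ezh2-3. *Guca1b* was at 5.35 ± 0.385 CPM (SD, n = 3) in GFP libraries, 8.29 ± 0.348 CPM (SD, n = 2) in Ezh2-1 and Ezh2-2, and 4.03 CPM in Ezh2-3. With Ezh2-3 neither was called, at edgeR adjusted p values of 0.188 for *Slc24a1* and 0.367 for *Guca1b*. *Gucy2f*, a photoreceptor guanylyl cyclase, had the lowest log2 fold change, -0.30 ± 0.08 (SE), with an edgeR adjusted p of 0.00871, short of the fold threshold. With Ezh2-3 it was -0.44 ± 0.14 (SE) and the edgeR adjusted p was 0.0975. The median of this list was 0.27 in 5 libraries and 0.08 with Ezh2-3.

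Among 8 other photoreceptor transcription factors, 0 were called by edgeR in either direction, and 2 had an unadjusted p under 0.05, beside 29.3% of all tested genes. Their median log2 fold change was 0.15, and 0.01 with Ezh2-3, with *Samd7* highest at 0.68 ± 0.29 (SE, edgeR adjusted p of 0.112, and 0.248 with Ezh2-3). *Rorb*, a nuclear receptor expressed in several retinal cell types, was lowest at -0.25 ± 0.05 (SE, edgeR adjusted p of 0.000649, and 0.0451 with Ezh2-3). *Crx*, the general photoreceptor factor, was at 24.5 ± 0.869 CPM (SD, n = 3) in GFP libraries and 25.6 ± 2.96 CPM (SD, n = 2) in Ezh2-1 and Ezh2-2, and at 18.4 CPM in Ezh2-3. Transcription factors, *Nrl* and *Nr2e3* included, thus held no call. Over all tested genes 2.52% were called higher, so 0 calls among so few genes says little about these factors. *Nr2e3* passed the p threshold and missed the fold threshold, at 1.45-fold. Outer segment and visual cycle genes held 11 of the 13 calls among the other photoreceptor genes. The difference between these lists was not tested.

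**Figure D4:**
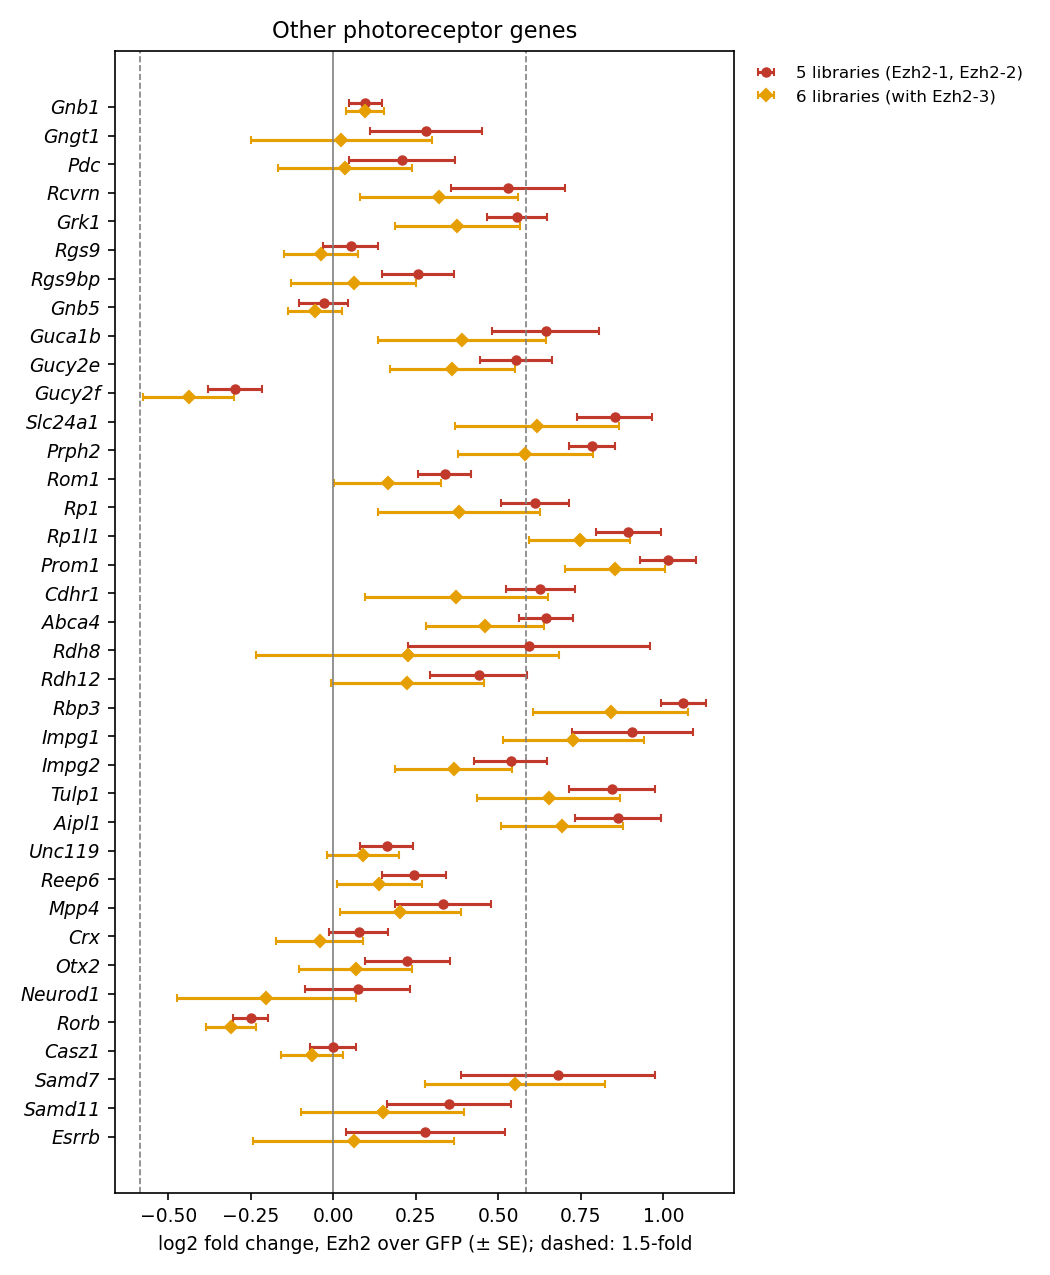
Log2 fold change of other photoreceptor genes, Ezh2 over GFP, with bars of 1 SE from edgeR, in 5 libraries (red) and 6 libraries (orange). Dashed lines mark a 1.5-fold change. Genes from *Prph2* to *Mpp4* are of the outer segment and visual cycle, and those from *Crx* to *Esrrb* are transcription factors.

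Cone genes were set beside the rod genes as the nearest cell class. Of 10 cone markers, 8 were called higher in 5 libraries, beside 2.52% of all tested genes. With Ezh2-3, 2 cone markers were called higher (*Gngt2* and *Pde6c*), beside 1.62% of all tested genes. Antisense genes overlap exons of *Gngt2*, *Opn1sw* and *Pde6h*, so these counts are uncertain to that extent. The cone median log2 fold change was 1.17, beside 0.50 for the rod genes, and with Ezh2-3 it was 0.92, beside 0.33. *Gnat2*, the cone counterpart of *Gnat1*, was at 2.96 ± 0.250 CPM (SD, n = 3) in GFP libraries, 5.77 ± 1.42 CPM (SD, n = 2) in Ezh2-1 and Ezh2-2, and 3.50 CPM in Ezh2-3. *Cnga3* had the highest cone value, 1.99 ± 0.60 (SE), from a low level of 0.239 ± 0.219 CPM (SD, n = 3) in GFP libraries. The lowest was *Gnb3*, at 0.22 ± 0.08 (SE). In Ezh2-3, 8 of the 10 cone markers were above their GFP mean and 5 were above each GFP library, with a median log2 ratio to the GFP mean of 0.23. The share of all tested genes above each GFP library in Ezh2-3 was not counted, so these counts are a description only. Summed cone markers in Ezh2-3 were 1.00 times the GFP mean, a sum led by *Gnb3*, which was at 34.4 ± 1.83 CPM (SD, n = 3) in GFP libraries and 24.6 CPM in Ezh2-3. The difference between rod and cone genes was not tested.

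Markers of other cell types moved between the same libraries. In Ezh2-1 and Ezh2-2, the summed level relative to the GFP mean was 1.17 times for RGC markers, 0.686 for amacrine markers, 0.975 for bipolar markers, 0.775 for Müller glia markers, 1.27 for microglia and macrophage markers and 1.26 for T cell markers. In Ezh2-3 it was 1.23, 0.699, 0.894, 0.616, 0.897 and 2.03 times in the same order. The RGC sum was led by *Thy1*, which encodes the antigen used for sorting (90.05 ± 2.73 CPM, SD, n = 3, in GFP libraries). In Ezh2-3, 7 of the 11 RGC markers were above their GFP mean, with *Nefh* at 1.875 times and *Isl1* at 0.562 times that mean. The amacrine sum was led by *Slc6a9* (53.3 ± 5.30 CPM, SD, n = 3, in GFP libraries), and its members did not move one way. *Tfap2b* was called lower and *Tfap2c* higher in both comparisons, while *Gad1* averaged 1.87 CPM in GFP libraries and 3.10 CPM in Ezh2-1 and Ezh2-2 and was at 12.1 CPM in Ezh2-3. Summed Müller glia markers were 18610 to 19280 CPM in GFP libraries, 14600 and 14940 CPM in Ezh2-1 and Ezh2-2 and 11730 CPM in Ezh2-3. Of the 8 Müller glia markers, 0 were called lower at 1.5-fold, and 6 were lower at an edgeR adjusted p under 0.05, beside 7.68% of all tested genes. The part of these shifts in the rod values was not tested.

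**Figure D5:**
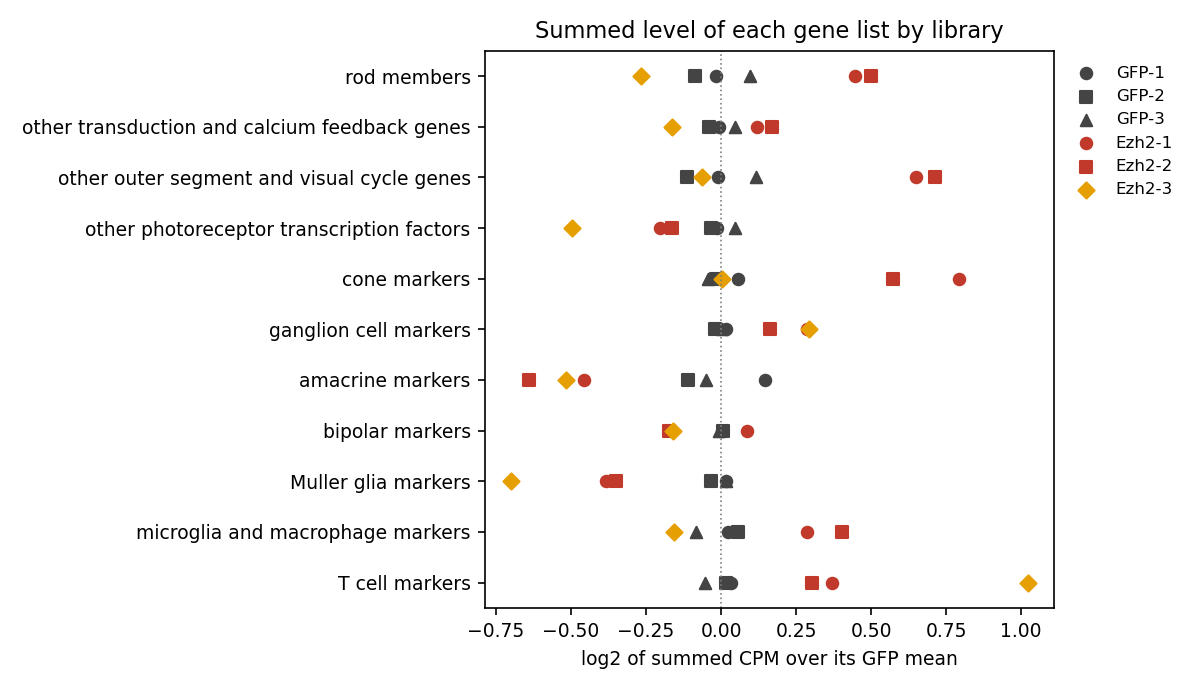
Summed CPM of each gene list in each library, as the log2 ratio to the GFP mean. The 9 rod genes (top row) are at 1.39 times the GFP mean in Ezh2-1 and Ezh2-2 and at 0.832 times in Ezh2-3, while T cell markers are highest in Ezh2-3, at 2.03 times.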

How the data were processed

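RNA-Seq libraries were made with a stranded total RNA kit from FACS-enriched retinal cells. Raw counts per Ensembl gene were deposited by the authors for 6 libraries (0 columns lacked a sample). The submitters' processing notes name STAR 2.7.0d and GRCm38. The counting program, annotation release and strand setting are not given in the sources used here. GENCODE M21 supplied symbols for 55394 of 55573 identifiers.

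Counts were filtered with filterByExpr, scaled by TMM and fitted with edgeR 4.0.16 (quasi-likelihood, robust option, R 4.3.3), two-sided, with Benjamini-Hochberg adjustment over all tested genes. CPM used library totals. For correlations, a prior count of 2 was added before log2 CPM were taken. The fit was tested on simulated data. Replicates were checked for repeated deposition, and chi-square per degree of freedom was 5.27 to 62.9 between libraries of the same group, so each counted once.

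The rod genes and gene lists were chosen with earlier results of these data known. Named genes were the 9 rod genes, called genes and the extremes of each list, and the 10 genes most alike. *Thy1*, *Rbpms*, *Pou4f1*, *Pou4f2*, *Pou4f3*, *Glul*, *Crx*, *Gnat2*, *Slc6a9* and *Gad1* were named after their values were seen. So were the ranked *Gucy2e*, *Rp1*, *Cdhr1*, *Rcvrn*, *Impg2*, *Guca1b* and *Grk1*. For 1 listed gene, kept in the counts, the result is not reported here. Alternatives were other libraries, a replicate block, DESeq2 1.42.0, other scaling, filters and thresholds. A fit without the robust option was chosen after seeing the data. Figures were drawn with matplotlib 3.10.9.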

Additional observations from a re-analysis of the deposited data

How the results depend on the processing

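The inclusion of Ezh2-3 changed the calls. With all 6 libraries, 0 rod genes, 2 other photoreceptor genes and 2 cone markers were called higher, beside 1.62% of all tested genes. The median log2 fold change of the rod genes was then 0.33. Leaving out each library in turn gave 2 to 3 rod genes in the 5 libraries and 0 in the 6, 10 to 16 and 0 to 1 other photoreceptor genes, and 5 to 8 and 0 to 1 cone markers. The count of 5 cone markers came without Ezh2-1. The median ranged from 0.46 to 0.55 in the 5 libraries and from 0.20 to 0.36 in the 6, with 0.201 without Ezh2-2, 0.248 without Ezh2-1 and 0.275 without GFP-2. Calls over all genes moved too: leaving GFP-1, GFP-2 or GFP-3 out of the 6 libraries cut the genes called higher from 320 to 73, 135 and 82, so 0 among 9 says little there. With adjusted p alone, 7 rod genes were higher. No pairing by replicate number was seen (r of deviations from group means, -0.020 to -0.005). The Ezh2 mean included Ezh2-3, which stood apart and weighs on each Ezh2 deviation, so this check cannot exclude pairing. The replicate block gave 3 rod genes, 16 other photoreceptor genes and 7 cone markers in the 5 libraries, and 0, 1 and 2 in the 6, with medians of 0.56 and 0.30. In the 5 libraries GFP-3 alone held number 3, so the block took up GFP-3 and came close to leaving it out. Without GFP-3 the same 3, 16 and 7 genes were counted. *Nrl* had a log2 fold change of 0.416 both ways in 5 libraries, with edgeR adjusted p values of 0.0192 under the block and 0.0278 without GFP-3.

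DESeq2, RLE size factors, library totals, a mean of at least 50 counts, no low-count filter and a fit without the robust option each left 2 rod genes called. Of 171 values of single rod genes over 19 alternatives, 168 were above 0. The exceptions came from 6 libraries: *Pde6b* at -0.013 without Ezh2-2, and *Nrl* at -0.031 without GFP-1 and -0.084 without Ezh2-2. The cause was not tested. With 2 Ezh2 libraries in the main comparison, the spread of that group rests on 1 difference. The effect of depth was not tested.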
